A study of Mus musculus with 8 samples.

Results

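Immediate early genes were followed here across the cell classes of mouse lung adenocarcinomas. The set holds 38 genes, chosen by symbol, of the 32286 gene features of each count matrix, and all 38 had 1 row there. It comprises the AP-1 genes Fos, Fosb, Fosl1, Fosl2, Jun, Junb and Jund, the EGR genes Egr1, Egr2 and Egr3, the nuclear receptors Nr4a1, Nr4a2 and Nr4a3, and the KLF genes Klf4, Klf6 and Klf10. The further transcription factors are Atf3, Maff, Mafk, Cebpb, Cebpd, Myc and Per1, and the IER genes are Ier2, Ier3 and Ier5. The rest are brakes and stress regulators: Dusp1, Dusp2, Ppp1r15a, Gadd45b, Zfp36, Zfp36l1, Btg1, Btg2, Tob1, Socs3, Tsc22d3 and Rhob.

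The study aimed CRISPR activation at tumour cells of the KP lung adenocarcinoma model when tumours were started, by lentivirus given into the trachea of KPC mice. The mA1 group received dRNAs against Malat1, a nuclear long noncoding RNA, and the Con group received dRNAs against Tomato. The largest tumours, 4 mA1 and 4 Con, were taken 16 weeks later and dissociated with collagenase IV and DNase at 37 °C, and dead cells were removed. Each group gave 2 libraries (10x 3′ version 3), with 2 hashtags in each. Whether a library's hashtags stand for separate animals is not given in the sources used here, so p-values measure the spread between libraries, which may be technical. The choice of the largest tumours, and the warm digestion that all groups share, limit both groups as a sample of the tissue.

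Immediate early genes are transcribed within minutes of a signal without new protein synthesis. Kinases of the MAP kinase pathway act on factors bound to serum response elements (CArG boxes), and cyclic AMP signalling acts through CREB at cyclic AMP response elements (CREs). The Fos and Jun proteins pair to form AP-1, while Dusp1, which dephosphorylates MAP kinases, and Zfp36, which speeds decay of AU-rich messenger RNA, end the response. Enzymatic dissociation at body temperature is known to induce many of these genes, so a level here is that of a dissociated cell.

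The counts came from 23769 cells, 7343 and 3773 in mA1 libraries 1 and 2, and 7054 and 5599 in Con libraries 1 and 2. The files held 48319272 to 74996867 UMIs per library. Clusters were formed without the 38 genes among the variable genes, and markers named 20 classes with 22403 cells. The 15 classes with at least 20 cells in every library, 21860 cells, were compared. Tumour-like epithelial cells showed Epcam at 796 and 687 UMIs per 1000000 UMIs of the class (CPM) in the mA1 libraries, against 745 and 801 CPM in the Con libraries. A macrophage cluster led by Inhba, Arg1 and Mmp12 is given by its number, cluster 7, since its best match, alveolar macrophages, had none of its markers among the 10 leading genes. Libraries shared 108 to 330 barcodes per pair, and 233 cells of the compared classes had such a barcode. Malat1 itself had 26826 and 45893 CPM in mA1 tumour-like epithelial cells, against 40843 and 23584 CPM in Con ones, so the groups overlapped.

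Upstream sequences of 31 of the 38 genes are in RefSeq's table for GRCm38.p6, which is the mm10 build. The 250 bases before the start are shown for 5 genes that varied together between cells or were high in neutrophils. Lower case is the plain sequence, and capitals mark the motifs searched, on either strand. The motifs were TGACGTCA (the full CRE), TGACGT (a shorter CRE core that every full CRE also contains), TGANTCA (an AP-1 motif), GCGNGGGCG (an EGR motif), TATAAA and the CArG box.
Fos, chr12:85473640-85473889, plus strand: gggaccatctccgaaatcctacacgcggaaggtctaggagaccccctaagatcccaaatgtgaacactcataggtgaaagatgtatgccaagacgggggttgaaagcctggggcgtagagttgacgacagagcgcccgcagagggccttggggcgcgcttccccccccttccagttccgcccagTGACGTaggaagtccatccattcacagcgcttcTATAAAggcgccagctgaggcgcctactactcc
Atf3, chr1:191183334-191183583, minus strand: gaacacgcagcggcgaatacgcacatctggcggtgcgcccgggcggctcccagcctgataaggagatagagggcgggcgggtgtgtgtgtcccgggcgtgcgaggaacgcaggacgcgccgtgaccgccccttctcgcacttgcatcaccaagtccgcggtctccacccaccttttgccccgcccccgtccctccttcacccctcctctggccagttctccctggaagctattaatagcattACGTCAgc
Zfp36, chr7:28379229-28379478, minus strand: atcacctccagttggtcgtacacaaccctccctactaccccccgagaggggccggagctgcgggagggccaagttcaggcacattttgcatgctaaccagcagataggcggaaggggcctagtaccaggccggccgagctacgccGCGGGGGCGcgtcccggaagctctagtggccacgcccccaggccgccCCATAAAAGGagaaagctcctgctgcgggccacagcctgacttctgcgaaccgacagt
Dusp1, chr17:26508473-26508722, minus strand: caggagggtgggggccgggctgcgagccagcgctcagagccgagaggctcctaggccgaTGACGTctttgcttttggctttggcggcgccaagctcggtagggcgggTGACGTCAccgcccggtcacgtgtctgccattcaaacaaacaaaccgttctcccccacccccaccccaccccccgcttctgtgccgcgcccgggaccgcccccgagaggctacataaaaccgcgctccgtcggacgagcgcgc
Btg2, chr1:134079156-134079405, minus strand: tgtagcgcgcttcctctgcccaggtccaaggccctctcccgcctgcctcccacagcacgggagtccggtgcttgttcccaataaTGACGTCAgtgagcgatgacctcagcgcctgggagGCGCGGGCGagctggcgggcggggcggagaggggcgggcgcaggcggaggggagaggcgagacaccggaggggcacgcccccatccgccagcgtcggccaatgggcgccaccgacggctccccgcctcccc

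In this window the CRE core TGACGT was present in 10 of the 31 genes (Atf3, Btg1, Btg2, Dusp1, Egr2, Fos, Maff, Nr4a3, Per1 and Ppp1r15a), and in 7.29% of 27025 genes with a promoter in the table. The full TGACGTCA was present in 4 of the 31 (Btg2, Dusp1, Maff and Ppp1r15a), against 1.77% of all genes. It began 143 bases before the Dusp1 start and 166 bases before the Btg2 start. The EGR motif GCGNGGGCG was present in 12 of the 31, Zfp36 and Btg2 among them, against 5.33% of all genes. CArG boxes were found in Egr2 and Zfp36, 2 of the 31, against 1.62% of all genes, and the one of Zfp36 began 58 bases before its start. TATAAA occurred in 6 of the 31, against 14.3% of all genes. TGANTCA occurred in 1 of the 31, Zfp36l1, against 7.82% of all genes. Such a match is a description of letters in a window and no evidence of binding.

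Neutrophil-like cells gave by far the highest share of their RNA to these genes, while tumour-like epithelial cells held the most of their molecules per cell. The 38 genes together made up 5.52% of neutrophil UMIs, with 4.74% to 6.40% over the 4 libraries. Among the compared classes, monocyte-like cells followed with 1.59% (1.44% to 1.79%). C1q macrophage-like cells had 1.26% (1.13% to 1.34%) and cDC2-like cells 1.24% (1.16% to 1.41%). Tumour-like epithelial cells were in the middle with 0.926% (0.770% to 1.05%). Alveolar macrophage-like cells with 0.487% (0.394% to 0.582%) and plasma cell-like cells with 0.282% (0.262% to 0.295%) had the lowest shares among the compared classes. Some named classes had fewer than 20 cells in a library and were not compared. Of these, basophil or mast-like cells had 3.02% (2.31% to 3.52%), endothelial-like cells 2.07% (1.40% to 3.73%) and AT2-like cells 0.262% (0.193% to 0.359%). The neutrophil range did not overlap that of any other class. In basophil or mast-like cells Jun, Jund, Junb, Ier3 and Ier2 made up 58.5% of the summed level of the 38. In endothelial-like cells Fos, Jun, Junb, Jund and Ier3 made up 44.6% of it. Orders of classes given below for single genes cover the compared classes only.

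Counted per cell, the order was another one. Tumour-like epithelial cells averaged 399 ± 135 UMIs of the 38 genes per cell (SD, n = 4 libraries), cluster 7 macrophages 235 ± 33.8 and neutrophil-like cells 108 ± 18.7. Lymphocytes had the fewest, with 17.9 ± 4.86 per NK-like cell and 24.2 ± 5.17 per B cell-like cell. Neutrophil-like cells were shallow, with a median of 1597 UMIs of all genes per cell, against 30650 in tumour-like epithelial cells. A CPM value below is thus a share of the counted RNA of a class and not an amount per cell.

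**Figure D1:**
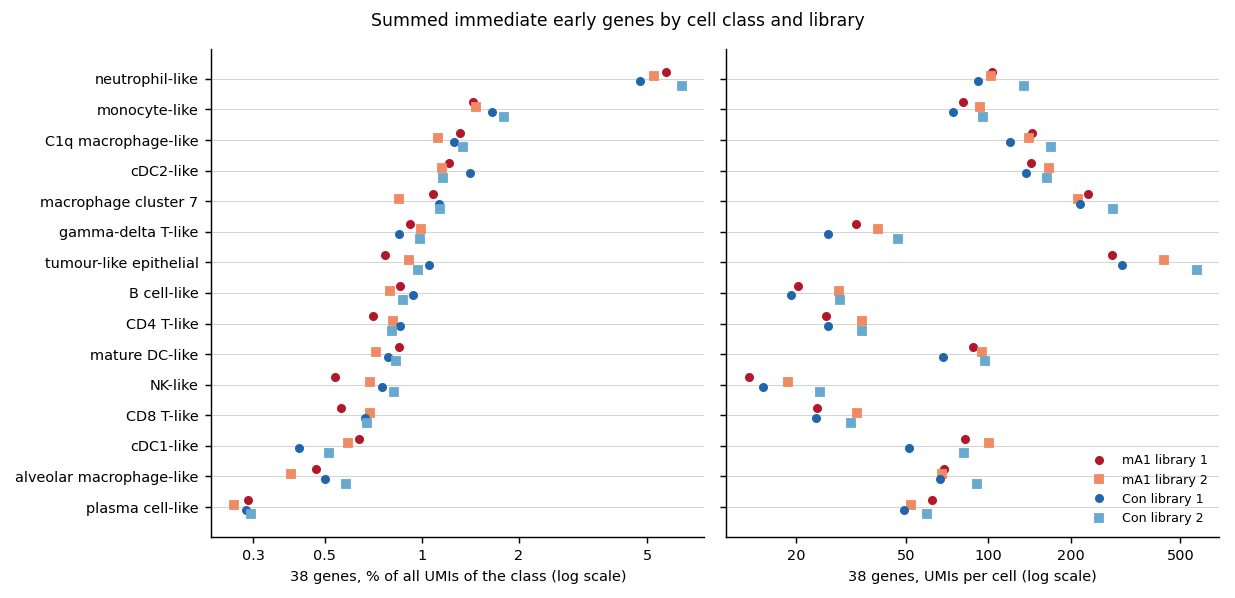
Summed UMIs of the 38 genes in 15 classes, each point 1 library, as a percentage of all UMIs of the class (left) and per cell (right), both on log axes. Neutrophil-like cells stand alone on the left, at 4.74% to 6.40%, and tumour-like epithelial cells lie highest on the right, at 283 to 575 UMIs per cell.

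Each class was set against the mean of the other 14 in a model over all genes, with library as a block (edgeR quasi-likelihood test, a call needed an adjusted p below 0.05 by Benjamini-Hochberg and a log2 difference of 1 or more either way). In neutrophil-like cells 35 of the 38 genes were called higher, where 19.3% of all 11776 genes tested were, and 1, Myc, was called lower, against 18.9% of all genes. The median log2 difference of the 38 was 3.63. These differences use edgeR's TMM scaling factors, while CPM values are per total UMIs. Without the factors neutrophil-like cells had 34 of the 38 higher and 1 lower, against 14.6% and 30% of all genes, with a median of 3.19 for the 38 and of -0.61 (with factors -0.19) for all genes. The median was also above 0 in monocyte-like cells (0.81), C1q macrophage-like cells (0.79), cDC2-like cells (0.73) and cluster 7 (0.44). Over all 15 classes, 131 of 570 gene and class pairs of the 38 were called higher and 148 lower, against 14.8% and 9.54% of all pairs.

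C1q macrophage-like cells had 17 of the 38 called higher and 1 lower, against 17.2% and 4.01% of all genes. Monocyte-like cells had 15 higher and 2 lower, against 11.7% and 7.73% of all genes. cDC2-like cells had 15 higher and 3 lower, against 13.4% and 2.48%, and cluster 7 had 14 higher and 4 lower, against 17.2% and 9.32%. Atf3, Ier3 and Cebpd were called higher in all 5 of the classes named so far (neutrophil-like, monocyte-like, C1q macrophage-like, cDC2-like and cluster 7).

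Tumour-like epithelial cells had 9 called higher (Atf3, Cebpd, Egr1, Fosl1, Ier3, Jund, Maff, Myc and Rhob) and 10 lower, against 22.8% and 14.8% of all genes. The 10 lower ones were Btg1, Btg2, Dusp2, Egr2, Egr3, Nr4a3, Per1, Socs3, Tsc22d3 and Zfp36.

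Most lymphoid classes and alveolar macrophages leaned the other way. NK-like cells had 1 called higher and 17 lower, against 10.9% and 11.1% of all genes. CD8 T-like cells had 3 higher and 15 lower, against 13.7% and 10.1%. B cell-like cells had 7 higher and 11 lower, against 13.7% and 10.9%. CD4 T-like cells had 0 higher and 9 lower, against 13% and 8.45%, and gamma-delta T-like cells had 2 higher and 8 lower, against 11.7% and 8.84%. Alveolar macrophage-like cells had 4 higher (Cebpb, Cebpd, Egr2 and Klf4) and 21 lower, against 16.6% and 9.21%. Plasma cell-like cells had 2 higher and 20 lower, against 14% and 10.9%, and without TMM factors 0 higher and 30 lower, against 5.04% and 52.9%. The median of all genes there was -0.06 with the factors and -1.30 without them. Among dendritic cells, mature DC-like cells had 6 higher and 12 lower, against 14.3% and 8.71%, and cDC1-like cells had 1 higher and 14 lower, against 12% and 7.71%.

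**Figure D2:**
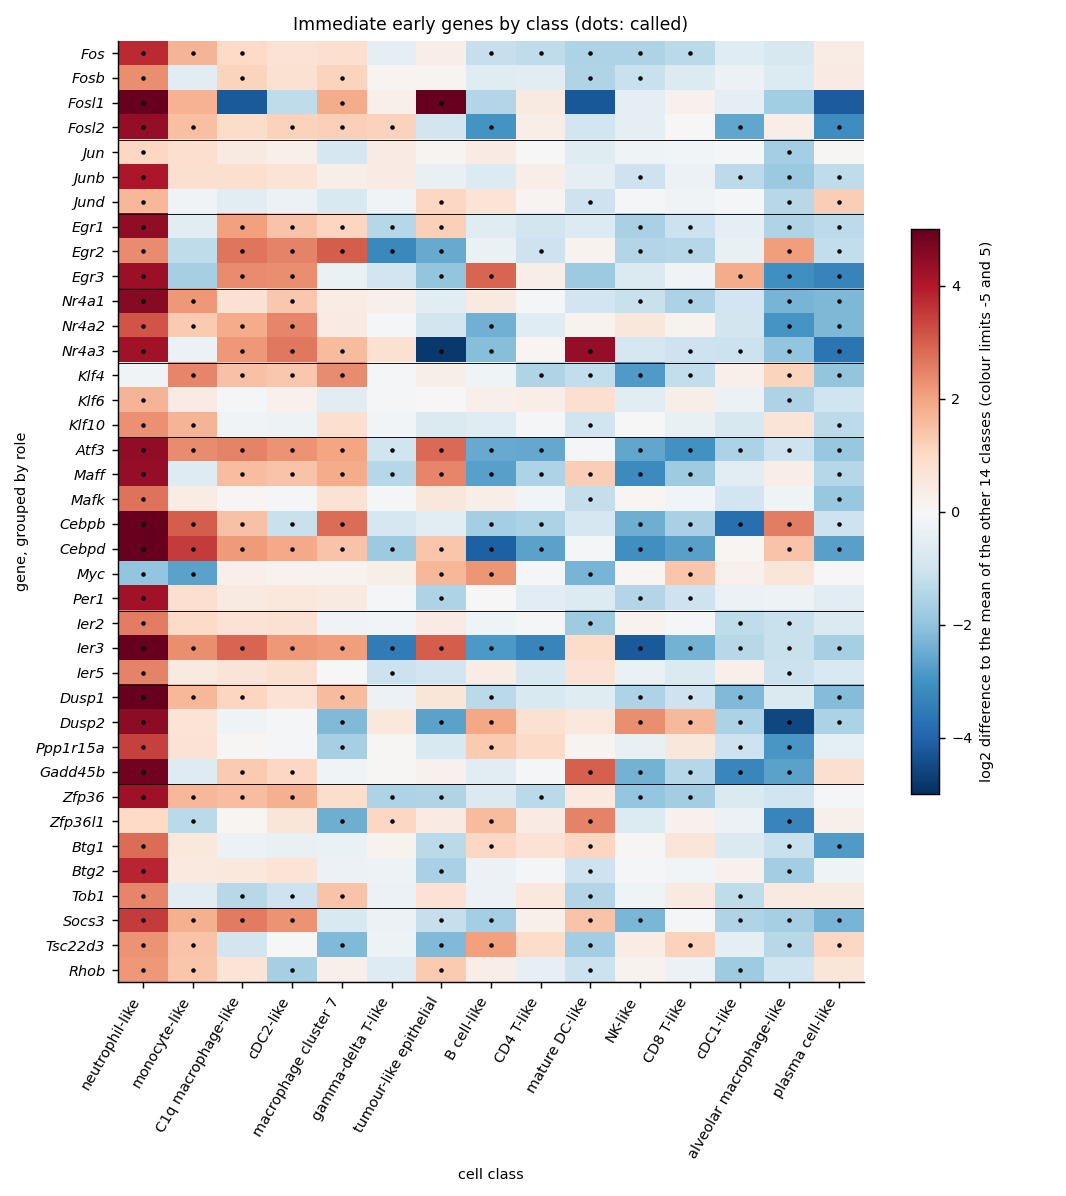
Log2 difference of each gene in each class to the mean of the other 14 classes, genes down the page grouped by role and classes across by summed level, with dots where the call was made. The neutrophil-like column is red for all genes called higher there, 35 of 38.

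Among the AP-1 genes, neutrophil-like cells stood apart from the other compared classes for Fos, Fosb, Fosl2 and Junb. Fos, the founding AP-1 partner, had 4617 and 4166 CPM in neutrophil-like cells of the mA1 libraries and 4034 and 5326 CPM in those of the Con libraries. The next compared class, monocyte-like, averaged 1802 ± 379 CPM (SD, n = 4). The ranges of those first 2 classes overlapped neither each other nor the third. From C1q macrophage-like cells (1077 ± 140 CPM) down to mature DC-like cells (189 ± 106 CPM), each class overlapped its neighbour in the order. Junb, the partner that often restrains growth, averaged 6982 ± 859 CPM in neutrophil-like cells, and no other compared class passed 1513 CPM in any library. From monocyte-like (1282 ± 164 CPM) to CD4 T-like cells (908 ± 90.4 CPM) neighbours overlapped, and plasma cell-like cells were lowest at 126 ± 66.6 CPM.

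Jun showed no gap between neighbouring classes. Its 4-library mean was highest in monocyte-like cells, at 1461 ± 275 CPM, then in gamma-delta T-like cells, at 1276 ± 316, and neutrophil-like cells, at 1130 ± 296. Every class overlapped its neighbour in the order down to alveolar macrophage-like cells at 287 ± 42.8 CPM. With TMM factors Jun was called higher in neutrophil-like cells alone (log2 difference 1.02), and without them in monocyte-like cells alone (1.01, against 0.60 in neutrophil-like cells), so that call follows the scaling. Jund, a partner present in resting cells, was called higher in neutrophil-like and tumour-like epithelial cells, and with TMM factors also in plasma cell-like cells. In plasma cell-like cells it had 618 and 795 CPM in the mA1 libraries and 604 and 874 CPM in the Con libraries, levels below those of B cell-like cells (995 to 1179 CPM). The log2 difference of 1.24 ± 0.06 (SE, edgeR adjusted p = 2.04e-27) rests on the scaling, since it was -0.00633 on total UMIs.

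Fosl1, a Fos relative linked to invasion of carcinoma cells, was highest in tumour-like epithelial and neutrophil-like cells. Tumour-like epithelial cells had 31.1 and 44.8 CPM in the mA1 libraries and 39.4 and 33.1 CPM in the Con libraries. Neutrophil-like cells had 38.4 and 45.5 CPM in the mA1 libraries and 34.1 and 20.3 CPM in the Con libraries. The highest mean of any other compared class was 2.00 CPM, in monocyte-like cells, and cluster 7, at 1.46 CPM, was also called higher. C1q macrophage-like, mature DC-like and plasma cell-like cells held 0 UMIs of Fosl1, so a fitted fold against the mean of the others depends on the prior count and is not given. Fosl2 was called higher in gamma-delta T-like cells, with 200 and 181 CPM in the mA1 libraries and 136 and 254 CPM in the Con libraries (log2 difference 1.17 ± 0.12, edgeR adjusted p = 1.58e-12).

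The EGR genes, zinc finger factors downstream of MAP kinase and calcium signals, divided the classes by member. Egr1 averaged 1818 ± 763 CPM in neutrophil-like cells, with 1507 and 1642 CPM in the mA1 libraries and 1194 and 2928 CPM in the Con libraries. C1q macrophage-like cells followed at 528 ± 82.4 CPM, and from them to cluster 7, at 291 ± 67.6 CPM, neighbours overlapped. Below that came a gap to monocyte-like cells at 112 ± 52.5 CPM. Egr2, which acts in macrophage differentiation, was highest in cluster 7, with 125 and 113 CPM in the mA1 libraries and 115 and 135 CPM in the Con libraries, a log2 difference of 3.04 ± 0.14 (edgeR adjusted p = 1.9e-24). Alveolar macrophage-like cells also had it higher, at 69.8 and 63.3 CPM in mA1 libraries and 66.4 and 77.8 CPM in Con libraries (log2 difference 2.10 ± 0.14, edgeR adjusted p = 2.16e-18).

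Egr3 was called higher in B cell-like cells, with 44.0 and 37.2 CPM in the mA1 libraries and 50.3 and 47.6 CPM in the Con libraries (log2 difference 2.91 ± 0.22, edgeR adjusted p = 9.33e-17). It was also called higher in cDC1-like cells, but there mA1 library 1 had 70.8 CPM and mA1 library 2 had 4.69 CPM, against 15 and 11.4 CPM in the Con libraries. That call thus rests largely on 1 library.

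The NR4A genes encode ligand-independent nuclear receptors. Nr4a3 was highest in mature DC-like cells, with 338 and 464 CPM in the mA1 libraries and 399 and 338 CPM in the Con libraries, a log2 difference of 4.41 ± 0.15 (edgeR adjusted p = 4.39e-29). Each of those libraries was above every neutrophil-like library, the next class, whose highest was 298 CPM. cDC2-like cells had Nr4a3, Egr2 and Nr4a2 as their 3 largest differences, at log2 values of 2.66, 2.5 and 2.44. In tumour-like epithelial cells Nr4a3 was nearly absent, at 1.07 and 0.304 CPM in the mA1 libraries and 1.03 and 1.91 CPM in the Con libraries.

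Cebpb and Cebpd, factors of granulocyte and macrophage differentiation and of the acute phase response, were called higher in 5 and 7 classes. Those of Cebpb were neutrophil-like, monocyte-like, C1q macrophage-like, alveolar macrophage-like and cluster 7 cells, while cDC1-like and cDC2-like cells were among the classes called lower, the cDC2-like call with TMM factors only (-0.94 without them). Cebpd was called higher in the same 5 and in cDC2-like and tumour-like epithelial cells. Cebpb had 5025 and 2771 CPM in neutrophil-like cells of the mA1 libraries and 4271 and 5719 CPM in those of the Con libraries (log2 difference 5.60 ± 0.10, edgeR adjusted p = 8.2e-40). In alveolar macrophage-like cells it had the largest difference of the 38, at 2.55 ± 0.12. Klf4, which supports monocyte differentiation, was, with Zfp36l1, 1 of 2 genes not called in neutrophil-like cells, with 43.8 and 21.7 CPM in the mA1 libraries and 88.8 and 23 CPM in the Con libraries. It was called higher in monocyte-like cells (log2 difference 2.42 ± 0.15), with 376 and 425 CPM in the mA1 libraries and 373 and 332 CPM in the Con libraries, and in cluster 7 (2.38 ± 0.11). Myc, the growth factor-induced proto-oncogene, was lower in neutrophil-like cells, at 5.39 and 0 CPM in the mA1 libraries and 3.79 and 2.70 CPM in the Con libraries. Its highest level was in B cell-like cells, at 61.9 and 40.0 CPM in mA1 libraries and 108 and 74.2 CPM in Con libraries (log2 difference 2.22 ± 0.15, edgeR adjusted p = 4.32e-20). Tumour-like epithelial cells followed and overlapped them, with 55 and 41.9 CPM in mA1 libraries and 80.2 and 37.4 CPM in Con libraries (1.65 ± 0.13).

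Atf3, a stress-induced repressor, followed the neutrophil-like cells (1431 ± 178 CPM) with tumour-like epithelial cells (762 ± 130 CPM), and those 2 ranges did not overlap. In the tumour-like epithelial cells it had 574 and 819 CPM in the mA1 libraries and 871 and 785 CPM in the Con libraries, a log2 difference to other classes of 2.84 ± 0.20 (edgeR adjusted p = 4.68e-17). Monocyte-like, C1q macrophage-like, cDC2-like and cluster 7 cells followed at 589 to 432 CPM on average, with overlapping neighbours. Below cluster 7 there was a gap, and the 9 remaining classes averaged at most 93.5 CPM.

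**Figure D3:**
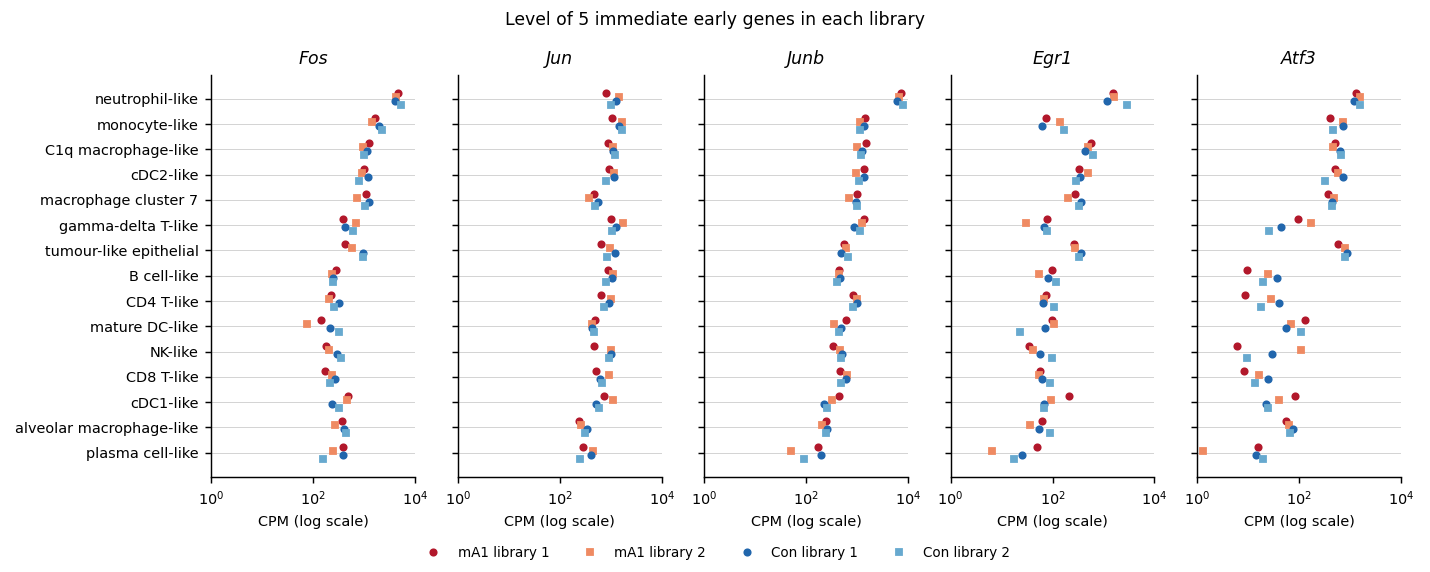
CPM of Fos, Jun, Junb, Egr1 and Atf3 in each of the 15 classes, each point 1 library, on log axes. Jun has no gap between neighbouring classes, while Atf3 runs between 1431 CPM in neutrophil-like cells and 12.9 CPM in plasma cell-like cells.

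Ier3, an early gene that blunts cell death, showed the widest contrast among well counted members. Neutrophil-like cells had 4691 and 4801 CPM in the mA1 libraries and 3510 and 5006 CPM in the Con libraries, a log2 difference of 6.90 ± 0.15 (edgeR adjusted p = 2.7e-36). Tumour-like epithelial cells came next among the compared classes. They had 562 and 636 CPM in the mA1 libraries and 430 and 504 CPM in the Con libraries (3.03 ± 0.18). C1q macrophage-like cells had 772 and 451 CPM in the mA1 libraries and 407 and 347 CPM in the Con libraries (2.90 ± 0.19), so those last 2 classes overlapped.

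The brakes of the response were high in the same neutrophil-like cells. Dusp1 averaged 6102 ± 1708 CPM there, and Btg2, an antiproliferative gene induced by p53 and growth factors, 3467 ± 445 CPM. Zfp36 averaged 2544 ± 817 CPM there. The second class by mean was monocyte-like for Dusp1, with at most 1437 CPM in a library, and cDC2-like for Btg2, with at most 718 CPM.

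Dusp2, a nuclear MAP kinase phosphatase of activated lymphocytes and myeloid cells, was the 1 gene called higher in NK-like cells. It had 170 and 193 CPM there in the mA1 libraries and 213 and 367 CPM in the Con libraries (log2 difference 2.32 ± 0.20, edgeR adjusted p = 7.8e-14). CD8 T-like cells had it higher as well (1.6 ± 0.21), together with Myc (1.38 ± 0.17) and Tsc22d3 (1.16 ± 0.15). In CD4 T-like cells no gene passed the fold threshold, and the largest difference was that of Ppp1r15a, which restarts translation after stress, at 0.97 ± 0.11. Without TMM factors it passed, at 1.06, as did Tsc22d3, at 1.02. Mature DC-like cells were led, after Nr4a3, by Gadd45b (2.98 ± 0.12) and the mRNA decay factor Zfp36l1 (2.48 ± 0.07). Zfp36l1 had 857 and 814 CPM there in the mA1 libraries and 747 and 1187 CPM in the Con libraries.

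Socs3, which blocks cytokine receptor signalling, was among the 3 largest differences of C1q macrophage-like cells at 2.60 ± 0.17, with 320 and 205 CPM in the mA1 libraries and 300 and 226 CPM in the Con libraries. Rhob, an early induced small GTPase, was called higher in neutrophil-like, monocyte-like and tumour-like epithelial cells. Tsc22d3, a glucocorticoid-induced gene, was called higher in B cell-like, CD8 T-like, monocyte-like and neutrophil-like cells. Its call in plasma cell-like cells (log2 difference 1.05) was lost without TMM factors (-0.19). Among the compared classes only, 30 of the 38 genes had their highest mean in neutrophil-like cells, against 8.31% of all 11776 genes. The highest compared class lay above the second in every library for 27 of the 38, against 33.3% of all genes.

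The neutrophil markers S100a8 and S100a9 were also read in the other classes, where the source of their counts was not tested. In the other 14 classes their summed level was 0% to 3.17% of the neutrophil level in the same library, with the upper end in monocyte-like cells. Outside monocyte-like cells the highest value was 0.577%, in CD8 T-like cells of mA1 library 2.

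Neutrophil-like cells consisted of cluster 4, led by Retnlg, and cluster 13, whose leading genes included Ccrl2 and Il1a. Their summed levels of the 38 genes overlapped, at 51006 to 63160 CPM in cluster 4 and 41910 to 65545 CPM in cluster 13. Their make-up is described without a test, since the clusters were drawn on the same cells. Cluster 13 held more Ier3 (4082 to 8394 CPM, against 2775 to 3325 CPM in cluster 4), Jun (1450 to 2568, against 329 to 422 CPM) and Dusp2 (574 to 1325, against 215 to 348 CPM). Cluster 4 held more Dusp1 (6386 to 9544 CPM, against 2764 to 6380 CPM in cluster 13), Btg1 (4551 to 5486, against 2572 to 3229 CPM) and Tsc22d3 (645 to 1255, against 159 to 437 CPM). These library ranges did not overlap. The genes are examples from the 38, and the share of the 38 or of all genes with such a gap is not given.

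Other genes of the response were read from lists chosen beside the members. Each count below stands beside the same shares of all genes. Those called higher were 19.3% in neutrophil-like and 22.8% in tumour-like epithelial cells, and those called lower are given above for each class. Of 11 early NF-kB target genes, 10 were called higher in neutrophil-like cells, among them Il1b (23252 CPM on average) and Cxcl2 (23939 CPM), and none lower. In tumour-like epithelial cells 1 of those 11 was higher and 8 were lower. Of 7 MAP kinase feedback genes tested, 6 were higher in tumour-like epithelial cells, where 22.8% of all genes were, with Spry2 at 44.0 CPM, Dusp4 at 51.0 CPM and Dusp6 at 159 CPM, and none lower. In neutrophil-like cells, where 19.3% of all genes were higher, 3 of those 7 were higher (Dusp5, Dusp6 and Spry2) and 1 lower (Spred1), and Dusp5 averaged 517 CPM there. Of 16 further early genes tested, 12 were higher in neutrophil-like cells, including Csrnp1 and Trib1, and 1, Ier5l, was lower. In tumour-like epithelial cells 6 of the 16 were higher and 4 lower (Cd69, Rgs1, Rgs2 and Csrnp1). The 6 higher ones included Ccn1 at 97.7 CPM and Ccn2 at 55.4 CPM, growth factor-induced matrix genes that averaged 0.379 and 0.569 CPM in neutrophil-like cells.

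Within classes, pairs of the early genes were correlated over cells. Cells were thinned to 2000 UMIs, or 1000 in neutrophil-like cells, and Pearson's r was taken per library between genes with at least 0.1 UMIs per thinned cell. These values describe cells that share a library and are given without a test. In 999 tumour-like epithelial cells deep enough, Fos and Atf3 had the highest mean r, 0.607, with 0.629 and 0.535 in the mA1 libraries and 0.652 and 0.610 in the Con libraries. Fos and Egr1 followed with 0.484, and 30 of 231 pairs had a mean r above 0.3.

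C1q macrophage-like cells had the most such pairs, 94 of 406, with a median r over pairs of 0.196 in 941 cells. Fos and Junb led there at 0.560, ahead of Junb and Zfp36 at 0.534. In cDC2-like cells Junb and Zfp36 led at 0.489 (17 of 351 pairs above 0.3), and in cluster 7 Fos and Dusp1 led at 0.427 (10 of 253). In neutrophil-like cells, where the genes were highest, 3 of 465 pairs passed 0.3, and Egr1 and Ier3 led at 0.351 in 1855 cells at the lower depth. NK-like, CD4 T-like, CD8 T-like, gamma-delta T-like and B cell-like cells had 0 pairs above 0.3, with highest values of 0.279, 0.201, 0.251, 0.290 and 0.189. At such sparse counts a weak r is no finding, and the neutrophil value is not comparable with the others because of its depth.

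**Figure D4:**
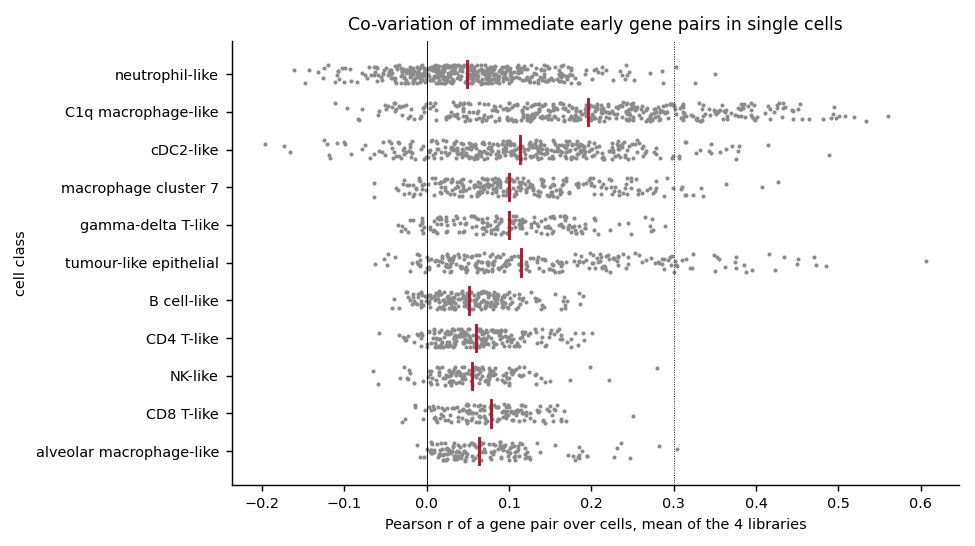
Pearson's r of each gene pair over cells, as the mean of the 4 libraries, for 11 classes with enough cells, with 1 grey point per pair, a red line at the class median and a dotted line at 0.3. C1q macrophage-like and tumour-like epithelial cells extend farthest to the right, to 0.560 and 0.607.

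Between mA1 and Con tumours, Fos in cDC1-like cells was the 1 call among the 38 genes, and it did not hold under several alternatives. Each class was fitted on its own over all genes, 2 mA1 libraries against 2 Con libraries. Of 514 gene and class pairs of the 38 genes that passed the filter on low counts, 1 was called higher and 0 lower, against 0.00989% and 0.0132% of all 121305 pairs tested, 0.0231% in both directions. By class, the share of all genes called higher was 0.0464% in cDC1-like, 0.0212% in mature DC-like, 0.0349% in plasma cell-like and 0.0492% in tumour-like epithelial cells, and 0% elsewhere. The share called lower was 0.0239% in B cell-like, 0.0119% in CD8 T-like, 0.039% in NK-like, 0.0155% in cDC1-like, 0.00946% in cluster 7, 0.0162% in neutrophil-like, 0.0873% in plasma cell-like and 0.0164% in tumour-like epithelial cells, and 0% elsewhere. Fewer cells of a type and less RNA per cell do not enter a CPM value of a class, but a shift in the mix of cells within a class does and cannot be told apart from a change per cell.

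The called gene was Fos in cDC1-like cells, dendritic cells that present tumour antigen to CD8 T cells. It had 475 and 460 CPM in the mA1 libraries, from 48 and 25 cells, and 237 and 316 CPM in the Con libraries, from 70 and 61 cells. The libraries of the groups did not overlap, and the log2 fold change was 0.82 ± 0.16 (edgeR adjusted p = 0.0468). By hashtag the tumours did overlap, with 300 to 569 CPM in the 4 mA1 tumours and 224 to 336 CPM in the 4 Con tumours. Fos was not called there by DESeq2 (adjusted p = 0.598), with doublets kept (edgeR adjusted p = 0.3), with top-scoring doublets left out (0.141) or without Con library 1 (0.287). In cDC1-like cells 28 of the 35 genes tested had a positive fold change, with a median of 0.41 against 0.00604 for all genes. Junb (0.74 ± 0.16, edgeR adjusted p = 0.118) and Atf3 (1.49 ± 0.32, adjusted p = 0.118) were next in p and were not called. T cell, NK and B cell markers, 21 genes, summed to 51.5 and 82.1 CPM in these cells of the mA1 libraries and 79.6 and 237 CPM in those of the Con libraries. Dnajb1, a heat shock gene, was also called higher there (1.17 ± 0.18, edgeR adjusted p = 0.0131). The part of either in the result was not tested.

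NK-like cells leaned the other way, with 28 of 32 genes tested at a negative fold change and a median of -0.38, against -0.00369 for all genes. Egr1 had 35 and 41.9 CPM in the mA1 libraries and 57.5 and 99.6 CPM in the Con libraries (log2 fold change -1.13 ± 0.25, edgeR adjusted p = 0.0793). Fos had 179 and 205 CPM in the mA1 libraries and 288 and 350 CPM in the Con libraries (-0.73 ± 0.17, edgeR adjusted p = 0.0828). The groups did not overlap for either gene, and neither was called. With the 8 hashtag tumours as samples, 5 genes were called lower in NK-like cells: Egr1, Fos, Klf6, Btg2 and Tob1. Fos then spanned 162 to 253 CPM in the 4 mA1 tumours and 281 to 383 CPM in the 4 Con tumours. Tumours of a library share a capture, so those p-values treat related samples as separate. The heat shock list, 10 genes, summed to 3258 and 6886 CPM in NK-like cells of the mA1 libraries and 7830 and 4463 CPM in those of the Con libraries, and its part in the result was not tested.

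In tumour-like epithelial cells, the cells meant to carry the activation, Fos had 427 and 569 CPM in the mA1 libraries and 949 and 950 CPM in the Con libraries. The groups did not overlap, with a log2 fold change of -0.94 ± 0.22 that edgeR did not call (adjusted p = 0.305) and DESeq2 did (adjusted p = 0.0108). Epithelial cells with 1 hashtag were 34% and 34.1% of them in mA1 libraries and 24% and 23.7% in Con libraries. They showed 336 to 678 CPM of Fos in the mA1 tumours and 686 to 1877 CPM in the Con tumours. With 14 to 87 such cells per tumour, this class was not tested by tumour. The tumours of mA1 library 1 had 678 and 476 CPM, against 427 CPM in all its epithelial cells. Those of mA1 library 2 had 336 and 383 CPM, against 569 CPM, so cells with a hashtag need not stand for their library. Atf3, the gene that varied with Fos from cell to cell, had a log2 fold change of -0.25 ± 0.23 (edgeR adjusted p = 0.887), and Junb -0.02 ± 0.22 (0.991). Of 37 genes tested in these cells, 27 were negative, with a median of -0.29 against -0.00276 for all genes.

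Dusp2 was the 1 gene whose mA1 minus Con difference in a class departed from the mean difference of the other classes, against 0.442% of all genes called in tumour-like epithelial cells and 0.03% of all pairs. It had 4.45 and 1.37 CPM in mA1 tumour-like epithelial cells, from 25 and 9 UMIs, and 11.2 and 11.3 CPM in Con ones, from 173 and 118 UMIs. The difference of differences was -2.18 ± 0.44 on the log2 scale (edgeR adjusted p = 0.0137), while the fold change within the class alone was -2.01 ± 0.46 (adjusted p = 0.318). Lymphocyte markers summed to 61.9 and 48.3 CPM in these cells of the mA1 libraries and 62.5 and 90.6 CPM in those of the Con libraries. In epithelial cells without a UMI of those markers Dusp2 had 0.660 and 0.471 CPM in the mA1 libraries, 1 UMI each, and 10.3 and 19.4 CPM in the Con libraries, and it was called (-4.71 ± 0.91, edgeR adjusted p = 0.00483). By hashtag the tumours overlapped, with 0.806 to 12.4 CPM in mA1 and 3.89 to 14.7 CPM in Con. It was not called without mA1 library 1 (edgeR adjusted p = 0.0919), without mA1 library 2 (0.273) or with top-scoring doublets left out (0.0618).

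**Figure D5:**
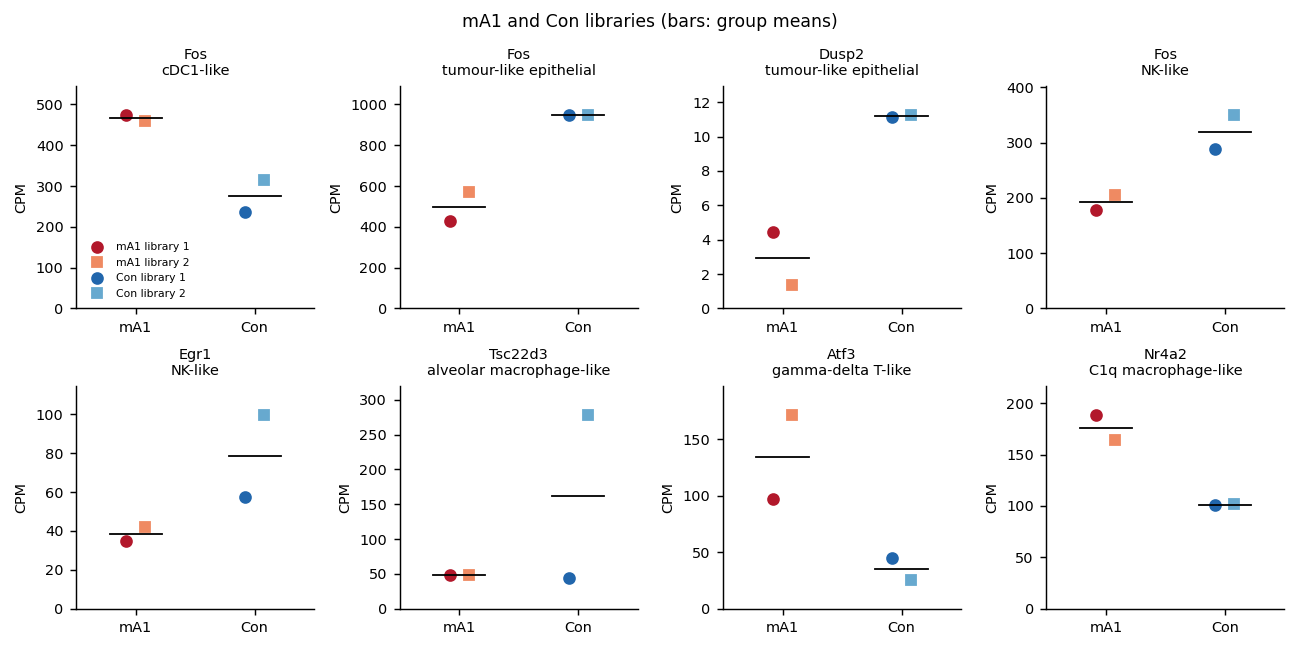
CPM of 6 genes in 8 gene and class pairs, each point 1 library, mA1 left and Con right, with a bar at the group mean and axes that start at 0. Fos in cDC1-like cells is higher in both mA1 libraries, Fos and Dusp2 in tumour-like epithelial cells are lower in both, and Tsc22d3 in alveolar macrophage-like cells is high in Con library 2 alone.

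In the remaining 12 classes 0 genes of the 38 were called by edgeR or by DESeq2 over libraries. The number with an unadjusted edgeR p below 0.05 ran between 0 of 26 tested in plasma cell-like cells, where 154 of all 5729 genes had one, and 9 of 32 in gamma-delta T-like cells, where 377 of 7453 had one. The 2 with the smallest p are given for each class. In C1q macrophage-like cells Nr4a2 had 188 and 164 CPM in the mA1 libraries and 100 and 102 CPM in the Con libraries (log2 fold change 0.82 ± 0.15, edgeR adjusted p = 0.153). Rhob had 124 and 113 CPM there in the mA1 libraries and 204 and 219 CPM in the Con libraries (-0.82 ± 0.15, edgeR adjusted p = 0.153). In gamma-delta T-like cells Atf3 had 97.0 and 172 CPM in the mA1 libraries and 45.4 and 25.8 CPM in the Con libraries (1.83 ± 0.33, edgeR adjusted p = 0.248). Those groups did not overlap in any of the 3. Socs3 had 78.3 and 66.0 CPM in the same gamma-delta T-like cells of mA1 libraries and 30.3 and 39.2 CPM in those of Con libraries.

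Mature DC-like cells had Nr4a2 at 65.0 and 51.3 CPM in the mA1 libraries and 20.7 and 15.6 CPM in the Con libraries, from 6 to 45 UMIs. Fos was opposite there, with 144 and 73.6 CPM in the mA1 libraries and 215 and 322 CPM in the Con libraries. Neutrophil-like cells had Dusp2 at 684 and 753 CPM in the mA1 libraries and 441 and 396 CPM in the Con libraries, and Klf10, a TGF-beta induced factor, at 138 and 217 CPM in the mA1 libraries and 125 and 107 CPM in the Con libraries. Monocyte-like cells had Ier3 at 405 and 502 CPM in the mA1 libraries and 281 and 263 CPM in the Con libraries. Their Zfp36 was at 679 and 393 CPM in the mA1 libraries and 813 and 973 CPM in the Con libraries. The smallest adjusted p of these pairs was 0.574, for Nr4a2 in mature DC-like cells.

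In cluster 7 and alveolar macrophage-like cells the 2 smallest p belonged to genes lower in mA1. Cluster 7 had Egr1 at 275 and 202 CPM in the mA1 libraries and 354 and 332 CPM in the Con libraries, and Rhob at 117 and 93.9 CPM in mA1 libraries and 134 and 167 CPM in Con libraries. Alveolar macrophage-like cells had Btg2 at 133 and 118 CPM in the mA1 libraries and 157 and 180 CPM in the Con libraries, and Jun at 240 and 264 CPM in mA1 libraries and 335 and 307 CPM in Con libraries. cDC2-like cells had Dusp1 at 487 and 451 CPM in the mA1 libraries and 633 and 628 CPM in the Con libraries, and Zfp36l1 at 349 and 400 CPM in mA1 libraries and 231 and 316 CPM in Con libraries. Each of these 6 pairs was apart between the groups, where 17.6% of all pairs tested had both mA1 libraries below both Con libraries and 14.3% both above. None had an adjusted p under 0.869.

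In lymphocytes Zfp36 had 57.3 and 40.0 CPM in CD8 T-like cells of the mA1 libraries and 92.2 and 88.1 CPM in those of the Con libraries (-0.77 ± 0.18, edgeR adjusted p = 0.258). With hashtag tumours as samples it was called lower there (-0.74 ± 0.16, edgeR adjusted p = 0.0331). In CD4 T-like cells it had 84.9 and 60.7 CPM in the mA1 libraries and 123 and 117 CPM in the Con libraries (-0.66 ± 0.17, adjusted p = 0.804). Per1, a clock gene that glucocorticoids induce, had 11.6 and 5.86 CPM there in mA1 libraries and 14.7 and 20.3 CPM in Con libraries. B cell-like cells had Dusp1 at 88.9 and 113 CPM in the mA1 libraries and 152 and 148 CPM in the Con libraries, and Tsc22d3 at 610 and 422 CPM in mA1 libraries and 684 and 880 CPM in Con libraries. Tsc22d3 in CD8 T-like cells had 333 and 259 CPM in the mA1 libraries and 352 and 521 CPM in the Con libraries. Plasma cell-like cells had Tsc22d3 at 90.6 and 144 CPM in mA1 libraries and 117 and 330 CPM in Con libraries, which overlapped, and Ier2 at 88.0 and 52.7 CPM in mA1 libraries and 51.1 and 47.8 CPM in Con libraries.

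Single libraries stood apart across classes, which share those libraries and are not independent. Tsc22d3 had a negative fold change in 15 of 15 classes, and its level was highest in Con library 2 in all 15. In alveolar macrophage-like cells it had 48.5 and 48.4 CPM in the mA1 libraries, against 44.6 and 278 CPM in the Con libraries. Fkbp5, another glucocorticoid-induced gene, was highest in Con library 2 in 14 of 15 classes, while the summed list of 6 such genes was highest there in 8 of 15. Without Con library 2 the fold change of Tsc22d3 was negative in 11 of 15 classes, with a median of -0.21 in place of -0.67. Per1 was highest in Con library 2 in 12 of 15 classes, and its fold change was negative in 12 of 13 classes tested and in 8 of 12 without that library. Zfp36 was negative in 14 of 15 classes, and in 10 of 15 without mA1 library 2, with a median of -0.18 in place of -0.58. Dusp1 was negative in 13 of 15 and stayed so in 12 to 14 of 15 with each library left out in turn. The smallest adjusted p of Tsc22d3 in any class was 0.198, of Zfp36 0.258, of Per1 0.785 and of Dusp1 0.821.

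Heat shock genes crossed the groups. Their summed level was higher in both mA1 library 2 and Con library 1 than in the other 2 libraries in 12 of 15 classes. The summed level of the 38 showed that order of libraries in 1 of 15 classes. Among the 38, Jun, Atf3 and Gadd45b showed it most often, in 8 of 15 classes each. Ier5 showed it in 6 classes, Btg1 in 5 and each of the others in 0 to 3. The share over all genes is not given, and a link to the heat shock genes was not tested.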

How the data were processed

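The deposited files hold UMI counts per gene and barcode, 1 matrix per library, made by the authors with Cell Ranger 6.0.1 on mm10, per the submitters' processing notes. The members and lists were chosen with earlier results of these data known. Barcodes with at least 500 UMIs, 250 genes and at most 15% mitochondrial UMIs were kept. Cells with both hashtags or called by Scrublet (scanpy 1.11.5) were left out, and Scrublet called 0 cells in Con library 2, where it was taken not to have worked. Clusters (2000 variable genes, 30 components, Leiden) were named from fixed markers, and 4 clusters with 1366 cells stayed unnamed. One of them, with 498 cells, held 466 cells whose barcode was also found in another library. Counts were summed per class and library and tested with edgeR 4.0.16 (TMM factors, filterByExpr, quasi-likelihood, two-sided, Benjamini-Hochberg over all genes tested), with DESeq2 1.42.0 as an alternative. Fits were tested on simulated data. In each class the 3 members with the largest difference to the other classes were named for the checks on processing. Only some of them are given with values in the text. Between mA1 and Con, each called member is given or, with none, the 2 with the smallest p. Fos, Jun, Junb, Egr1 and Atf3 are given across classes. Pearson's r was computed on thinned counts with at least 50 cells per library. Classes with fewer than 20 cells in a library were not compared. Names of the classes were rebuilt here from markers.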

Additional observations from a re-analysis of the deposited data

Results flagged for a closer look

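The mA1 minus Con difference of Dusp2 in tumour-like epithelial cells departed from the mean of the other 14 classes by -2.18 ± 0.44 on the log2 scale (edgeR quasi-likelihood test, adjusted p = 0.0137), which is a difference between classes under the same contrast. The level was 4.45 and 1.37 CPM in the mA1 libraries and 11.2 and 11.3 CPM in the Con libraries. It was lower in both mA1 libraries, and over the 12 alternatives the difference lay between -4.71 and -1.70, with adjusted p between 4.76e-11 and 0.273.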

How the results depend on the processing

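The count of members called against other classes (279 of 570 pairs) was 270 to 287 under its 14 alternatives, of which 260 to 277 were pairs called in the fit reported. That between mA1 and Con (1 of 514) was 4 with doublets kept, 6 with hashtag tumours as samples, 2 with members among the variable genes, 3 with the mitochondrial limit at 10%, 30 with no low-count filter, 0 with top-scoring doublets left out, and 9 to 34 with 1 library left out, where the lone library of a group is assumed to vary like the other group. DESeq2 gave 1, another pair. With the library number as a replicate block it was 11. Deviations of same-numbered mA1 and Con libraries from their group means correlated over genes at -0.116 to 0.0713, depending on the class. Such a correlation cannot tell whether those libraries were handled together, which the labels do not say. The difference of differences (1) gave 17 with no low-count filter, 0 with top-scoring doublets left out, and 0 to 2 with 1 library left out. The cause of these shifts was not tested. Between classes, 3 named members reversed without scaling factors, all in plasma cell-like cells: Jund (-0.00633), Tsc22d3 (-0.19) and Gadd45b (-0.46). No other named member changed its direction: of 471 recomputed mA1 over Con values 417 kept their side of the threshold, 50 passed it and 4 lost it, and of 630 between classes 613 kept it, 6 passed it, 8 lost it and 3 reversed. Of 45 summed levels 1 moved by more than its SD over libraries. Alternatives on scaling factors, top-scoring doublets, shared barcodes and epithelial cells with lymphocyte markers were chosen after seeing the data. With 2 libraries a group, and 25 to 70 cDC1-like cells a library, only large differences could be called.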
